A study of Mus musculus with 12 samples.

Results

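Antibody constant region transcripts and J chain transcripts were read out in bone marrow hematopoietic stem cells (HSCs) of Ythdc1 knockout and wild type mice. The 10 genes are Ighm, Ighg1, Ighg2b, Ighg2c, Ighg3, Igha, Igkc, Iglc1, Iglc2 and Jchain, found by gene symbol among 55335 genes of the count table, and all 10 passed the filter on low counts. They were chosen after higher values in Ythdc1Δ/Δ samples had been seen. Their own levels and shares in the 2 genotypes are therefore given as a description, without a test. Other genes were tested for genotype.

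The Ythdc1Δ/Δ mice were Ythdc1fl/fl Mx1-Cre animals treated with pIpC, and the Ythdc1+/+ mice were Ythdc1+/+ Mx1-Cre animals given the same treatment. Mx1-Cre is switched on by interferon, which pIpC induces, so deletion is not limited to HSCs and both genotypes carried the recombinase and received the inducer. The strain is labelled C57B6 (C57BL/6 in the methods), and donors were 8 weeks old according to the methods. Marrow was enriched with c-Kit beads and HSCs were sorted. The lineage antibodies named in the methods bind CD11b, Gr1, CD4, CD8, Ter119 and B220, the last of which is carried by most B cells but by few mature plasma cells. Polyadenylated RNA was amplified as cDNA and sequenced in 12 libraries, 2 for each of the numbered titles KO176, KO177 and KO209 (Ythdc1Δ/Δ) and WT178, WT180 and WT207 (Ythdc1+/+). Nothing in the labels says whether the numbers are single animals. The 2 libraries of each number were added up, and the comparisons are of 3 Ythdc1Δ/Δ against 3 Ythdc1+/+ samples. Levels are given as CPM, the counts scaled to the total of a sample.

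Library totals ranged from 20809936 to 24563170 counts. Ythdc1 itself was at 51.2, 67.9 and 75.0 CPM in the Ythdc1Δ/Δ samples and 75.2, 72.8 and 97.8 CPM in the Ythdc1+/+ samples, so 1 Ythdc1Δ/Δ value lay within the Ythdc1+/+ range. These are counts over the whole gene, including exons outside any deleted part. The 14 HSC markers summed to 2395 to 2634 CPM in Ythdc1Δ/Δ and 2876 to 3065 CPM in Ythdc1+/+ samples. Cd34 was the largest part, at 1221 to 1377 CPM in Ythdc1Δ/Δ and 1186 to 1453 CPM in Ythdc1+/+ samples. The sum is therefore not read as a measure of HSC content. The 13 granulocyte markers summed to 14099 to 22284 CPM in Ythdc1Δ/Δ and 11685 to 14139 CPM in Ythdc1+/+ samples, so transcripts typical of granulocytes were abundant in every sample.

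An antibody is built of heavy and light chains, each with a variable and a constant region. The heavy chain constant region sets the isotype. A B cell first uses Ighm and can later exchange it, by class switch recombination, for a gamma gene (IgG), Igha (IgA) or Ighe (IgE). The light chain is kappa (Igkc) or lambda (the Iglc genes), and kappa prevails in the mouse. Jchain encodes the polypeptide that joins IgM into pentamers and IgA into dimers. Plasma cells, many of which reside in the bone marrow, carry these transcripts at very high levels, whereas HSCs have no rearranged antibody genes. In bulk RNA, more cells of a type and more RNA per cell cannot be told apart.

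The 10 genes together took 4224, 3087 and 7618 CPM in Ythdc1Δ/Δ samples KO176, KO177 and KO209, against 1089, 1558 and 1791 CPM in Ythdc1+/+ samples WT178, WT180 and WT207. All 3 Ythdc1Δ/Δ sums lay above all 3 Ythdc1+/+ sums. The mean was 4976 ± 2358 CPM in Ythdc1Δ/Δ and 1479 ± 358 CPM in Ythdc1+/+ (SD, n = 3 each), a ratio of 3.36. Antibody and J chain transcripts were thus present in the wild type HSC samples as well. Of the 10 genes, 7 had every Ythdc1Δ/Δ sample above every Ythdc1+/+ sample, as 6.14% of the 18234 tested genes did. Mean CPM was at least 2-fold higher in Ythdc1Δ/Δ for 9 of the 10, and for 1.21% of all tested genes. Since this contrast chose the genes, nothing is read from these counts.

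Ighm, the gene of the IgM heavy chain (chromosome 12, 113418558 to 113422730, minus strand, mm10), was the most abundant heavy chain gene in each sample. It was at 1385, 1282 and 2986 CPM in Ythdc1Δ/Δ samples KO176, KO177 and KO209, against 574, 679.8 and 783 CPM in Ythdc1+/+ samples WT178, WT180 and WT207. The groups did not overlap, and sample KO209 stood far above the other Ythdc1Δ/Δ samples. The ratio of the means was 2.77. Ighd, the IgD gene that naive B cells transcribe together with Ighm, was at 1.44 to 1.97 CPM in Ythdc1Δ/Δ and 1.42 to 1.83 CPM in Ythdc1+/+ samples, with a log2 difference of 0.01 ± 0.25 (SE). Ighe had at most 7 counts in a Ythdc1Δ/Δ sample and 10 in a Ythdc1+/+ sample and did not pass the filter.

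The 4 gamma genes lie between Ighm and Igha on chromosome 12 and encode the IgG subclasses. Their coding sequences are alike, with 74.9% to 86.5% identical bases in pairwise alignments, and they differ most visibly in the hinge, the flexible stretch between the Fab arms and the Fc part. The hinge exons are printed to show what separates the subclasses whose counts are compared here. Capitals mark the hinge exon, and lower case gives the last bases of the exon before it and the first of the exon after it. The sequences are from GENCODE vM21 transcripts of GRCm38 (mm10), minus strand, with hinge exons at chr12:113329844-113329882 (Ighg1), chr12:113307261-113307326 (Ighg2b), chr12:113288263-113288325 (Ighg2c) and chr12:113360529-113360576 (Ighg3).
Ighg1: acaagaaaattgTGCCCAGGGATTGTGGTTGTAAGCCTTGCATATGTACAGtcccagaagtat
Ighg2b: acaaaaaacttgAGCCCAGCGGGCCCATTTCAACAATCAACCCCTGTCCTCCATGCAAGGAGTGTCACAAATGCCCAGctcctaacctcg
Ighg2c: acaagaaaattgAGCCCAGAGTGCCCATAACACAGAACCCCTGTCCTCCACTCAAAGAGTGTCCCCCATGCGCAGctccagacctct
Ighg3: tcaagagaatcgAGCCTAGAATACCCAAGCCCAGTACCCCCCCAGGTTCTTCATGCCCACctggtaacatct
The hinge exon of Ighg1 is the shortest of these and that of Ighg2b the longest. Of all stretches of 50 bases in the Ighg2b transcript used, 5.26% also occur in another of the constant gene transcripts compared, and of 100 bases 0%. Reads with no single best place were not counted.

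Ighg2b was at 93.5, 56.8 and 206.9 CPM in Ythdc1Δ/Δ samples KO176, KO177 and KO209, against 27.6, 12.6 and 25.2 CPM in Ythdc1+/+ samples WT178, WT180 and WT207. It was the gamma gene found at a substantial level in all 6 samples, and its groups did not overlap. Ighg2c, which C57BL/6 mice carry in place of Ighg2a, was at 251, 15.4 and 107 CPM in the same Ythdc1Δ/Δ samples, against 14.8, 0.104 and 12.5 CPM in the Ythdc1+/+ samples. The lowest Ythdc1Δ/Δ value was thus just above the highest Ythdc1+/+ value, and Ythdc1+/+ sample WT180 held only 5 Ighg2c counts.

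Ighg1, the subclass typical of responses to protein antigens, was at 143, 28.8 and 97.5 CPM in Ythdc1Δ/Δ samples KO176, KO177 and KO209. In Ythdc1+/+ samples it was at 0 CPM in WT178, 58.1 CPM in WT180 and 0.338 CPM in WT207. The groups overlapped, because sample WT180 lay above Ythdc1Δ/Δ sample KO177. In sample WT178 there were 0 Ighg1 counts among 28413 heavy chain counts, which by the limit of 3 counts allows a share of up to 0.0106%, for counting error only. Ighg3 was at 20.8, 34.8 and 0.283 CPM in Ythdc1Δ/Δ samples KO176, KO177 and KO209, against 11.9, 6.42 and 16.9 CPM in Ythdc1+/+ samples WT178, WT180 and WT207. Here the sample with the highest Ighm and Ighg2b, Ythdc1Δ/Δ KO209, was the lowest of all 6, with 13 counts, and the groups overlapped.

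Igha, the gene of the IgA heavy chain, was at 175, 248 and 217 CPM in Ythdc1Δ/Δ samples KO176, KO177 and KO209, against 46.2, 117 and 27.2 CPM in Ythdc1+/+ samples WT178, WT180 and WT207. The groups did not overlap. Among the 3 Ythdc1Δ/Δ samples Igha was the least variable of the 10 genes, with the highest value 1.42 times the lowest, against 4.28 times among Ythdc1+/+ samples.

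Igkc, the single kappa constant gene (chromosome 6, 70726435 to 70726966, plus strand), was at 1867, 1119.8 and 3299 CPM in Ythdc1Δ/Δ samples KO176, KO177 and KO209, against 321, 568 and 754 CPM in Ythdc1+/+ samples WT178, WT180 and WT207. No Ythdc1+/+ sample reached the lowest Ythdc1Δ/Δ sample. The ratio of the means was 3.83. Per kilobase of exon it was the most abundant of the 10, at a mean of 3939 CPM per kb in Ythdc1Δ/Δ and 1029 CPM per kb in Ythdc1+/+ samples. Ighm followed at 999 CPM per kb in Ythdc1Δ/Δ and 360 CPM per kb in Ythdc1+/+ samples. The lowest on this scale was Ighg3, at 7.42 CPM per kb in Ythdc1Δ/Δ and 4.68 CPM per kb in Ythdc1+/+ samples.

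The lambda constant genes lie on chromosome 16, and 2 of them, Iglc2 and Iglc3, are nearly alike. The final coding bases of these and of Iglc1, without the stop codon, are printed with capitals at each position where the 3 genes are not all alike (GENCODE vM21, minus strand, at chr16:19061755-19061844 for Iglc1, chr16:19198539-19198628 for Iglc2 and chr16:19065368-19065457 for Iglc3).
Iglc1: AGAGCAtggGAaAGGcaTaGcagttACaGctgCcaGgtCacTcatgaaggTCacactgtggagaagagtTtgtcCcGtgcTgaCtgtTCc
Iglc2: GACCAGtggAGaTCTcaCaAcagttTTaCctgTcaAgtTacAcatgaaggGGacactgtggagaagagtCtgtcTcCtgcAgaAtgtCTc
Iglc3: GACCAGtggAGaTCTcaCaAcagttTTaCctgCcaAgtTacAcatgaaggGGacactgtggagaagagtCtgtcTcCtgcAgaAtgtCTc
Over the whole coding sequence, Iglc2 and Iglc3 had 96.2% identical bases, Iglc1 and Iglc2 74.4%. Of the 50-base stretches of Iglc2, 10.5% also occur in another of these transcripts, and of the 100-base stretches 0%. How many reads could have come from either of Iglc2 and Iglc3 was not tested.

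Iglc1 was at 65.9, 92.2 and 117 CPM in Ythdc1Δ/Δ samples KO176, KO177 and KO209, against 44.9, 12.6 and 36.1 CPM in Ythdc1+/+ samples WT178, WT180 and WT207, with no overlap. Iglc2 was at 16.6, 56.1 and 67.8 CPM in the Ythdc1Δ/Δ samples, against 12.8, 11.7 and 37.9 CPM in the Ythdc1+/+ samples. Its groups overlapped, since Ythdc1+/+ sample WT207 lay above Ythdc1Δ/Δ sample KO176. The related Iglc3 ranged from 8.56 to 28.7 CPM in Ythdc1Δ/Δ and from 0.594 to 10.9 CPM in Ythdc1+/+ samples.

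Jchain (chromosome 5, 88519809 to 88527891, minus strand) was at 206, 152 and 520.3 CPM in Ythdc1Δ/Δ samples KO176, KO177 and KO209, against 35.0, 91.9 and 97.5 CPM in Ythdc1+/+ samples WT178, WT180 and WT207. Its groups did not overlap, and the ratio of the means was 3.91. The gene that makes polymeric IgM and IgA was thus about as much higher in Ythdc1Δ/Δ samples as Igkc was.

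**Figure D1:**
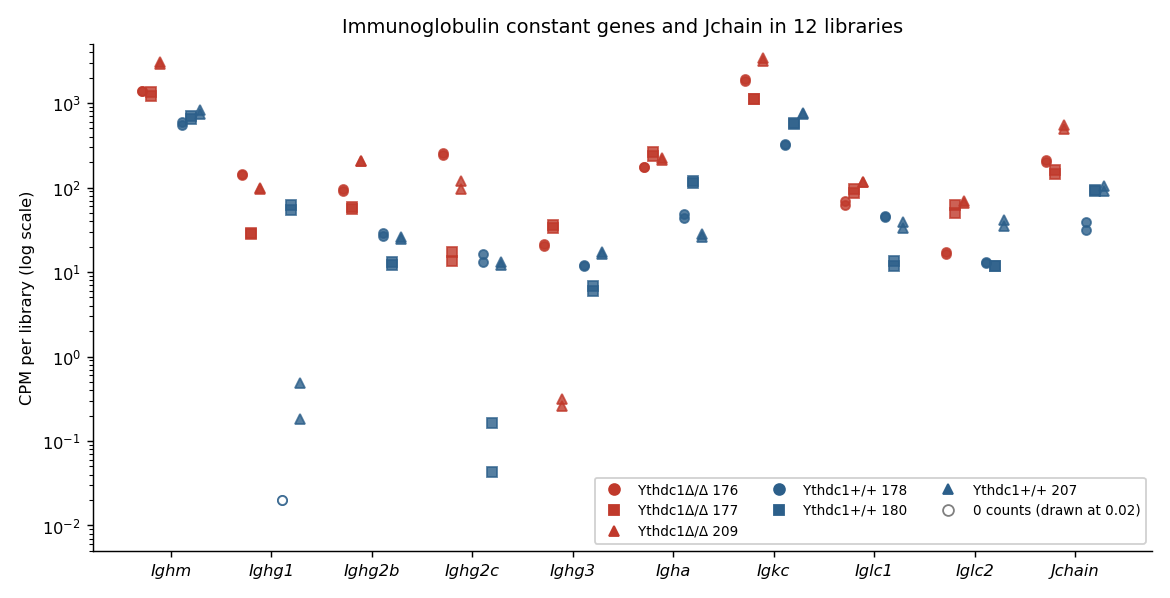
CPM (log scale) of each of the 10 genes in the 12 libraries, with Ythdc1Δ/Δ libraries in red to the left and Ythdc1+/+ libraries in blue to the right, and a marker shape for each number. The 2 libraries of a number nearly coincide; Ighg1, Ighg2c and Ighg3 spread over orders of magnitude within a genotype, with Ighg1 at 0 counts in Ythdc1+/+ WT178 (open symbol).

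The isotype make-up was read from the share of each gene in the counts of the 6 heavy chain genes. Ighm took 67.0%, 76.9% and 82.6% in Ythdc1Δ/Δ samples KO176, KO177 and KO209, against 85.1%, 77.8% and 90.5% in Ythdc1+/+ samples WT178, WT180 and WT207. IgM transcripts thus made up most of the heavy chain counts in every sample, and the groups overlapped. The 95% Wilson intervals, which cover counting error only because amplified reads are not independent molecules, spanned 66.7% to 67.3% in sample KO176. The mean was 75.5% ± 7.92 in Ythdc1Δ/Δ and 84.5% ± 6.38 in Ythdc1+/+ samples (SD, n = 3 each).

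The 4 gamma genes together took 24.6%, 8.15% and 11.4% in Ythdc1Δ/Δ samples KO176, KO177 and KO209, against 8.04%, 8.84% and 6.35% in Ythdc1+/+ samples WT178, WT180 and WT207. Sample KO176 stood far above the rest and KO177 lay among the Ythdc1+/+ samples, and the difference of the means, 6.96 percentage points, was 2.03 without KO176. The leading gamma gene also changed with the number. In Ythdc1Δ/Δ samples it was Ighg2c in KO176 (12.1% of heavy chain counts) and Ighg2b in KO177 (3.41%) and KO209 (5.72%). In Ythdc1+/+ samples it was Ighg2b in WT178 (4.08%) and WT207 (2.91%) and Ighg1 in WT180 (6.65%). Ighg2c is the shortest of these genes in the table, and per kilobase of exon its share passed that of Ighg2b in KO209 (4.34% against 4.15%), in WT178 (3.20% against 2.96%) and by little in WT207 (2.085% against 2.082%). Igha took 8.48%, 14.9% and 6.0% in the Ythdc1Δ/Δ samples, against 6.84%, 13.4% and 3.15% in the Ythdc1+/+ samples. Shares of Igha overlapped widely.

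**Figure D2:**
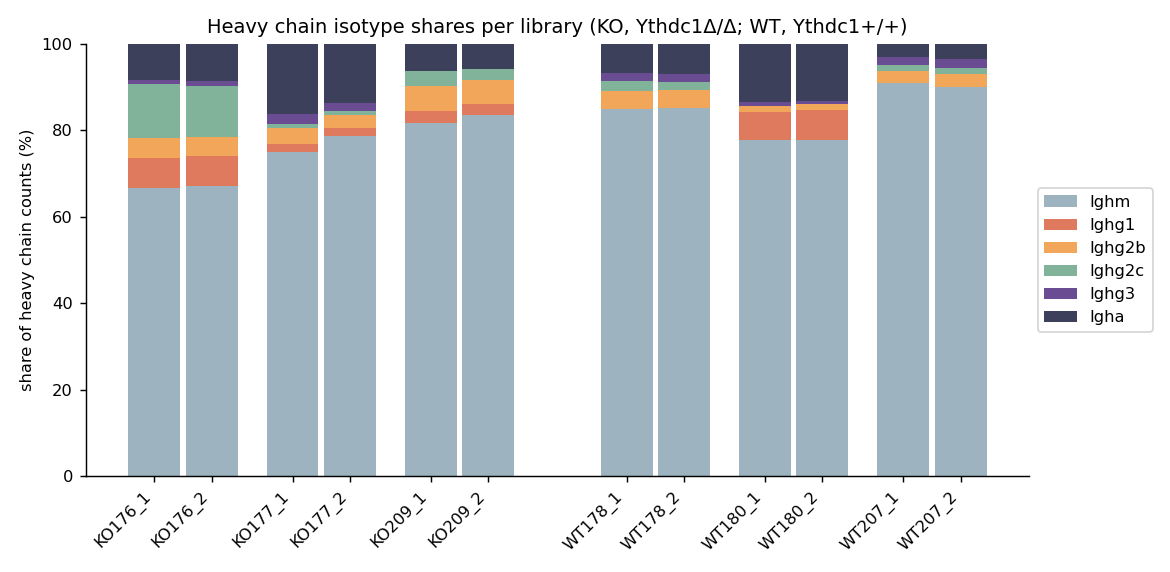
Share (%) of each heavy chain gene in the counts of the 6 heavy chain genes, as stacked bars for the 6 Ythdc1Δ/Δ libraries (left) and the 6 Ythdc1+/+ libraries (right). Ighm fills 67.0% to 82.6% of the Ythdc1Δ/Δ samples and 77.8% to 90.5% of the Ythdc1+/+ samples, and the gamma genes reach 24.6% in Ythdc1Δ/Δ KO176.

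The 2 libraries of a number had nearly the same isotype make-up. The distance between 2 libraries, taken as the percentage of counts that would have to change gene, was 0.47 to 3.65 (median 0.94) over the 6 pairs of the same number. It was 5.16 to 18.2 (median 14.7) over 24 pairs of other numbers of the same genotype and 4.26 to 25.1 (median 11.9) over 36 pairs of the other genotype. The make-up thus differed from number to number as much within a genotype as between genotypes. For single genes, the higher library of a number was at most 1.27 times the lower, other than Ighg1 in Ythdc1+/+ WT207 (2.70 times, 15 counts) and Ighg2c in Ythdc1+/+ WT180 (3.83 times, 5 counts). The counts of the 10 genes in the 2 libraries differed by more than sampling noise in each number (chi-square per degree of freedom 3.92 to 68.7), so the libraries are not the same reads deposited again.

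Kappa made up 95.8%, 88.3% and 94.7% of the light chain counts in Ythdc1Δ/Δ samples KO176, KO177 and KO209, against 84.7%, 95.9% and 91.1% in Ythdc1+/+ samples WT178, WT180 and WT207. The mean was 92.9% ± 4.03 in Ythdc1Δ/Δ and 90.6% ± 5.59 in Ythdc1+/+ samples, and the ranges lay largely on top of each other. Light chain counts per heavy chain count were 0.943, 0.761 and 0.964 in Ythdc1Δ/Δ samples, against 0.561, 0.678 and 0.957 in Ythdc1+/+ samples. Sample WT207 lay within the Ythdc1Δ/Δ range and the other Ythdc1+/+ samples below it. Jchain counts per 100 heavy chain counts were 9.94, 9.13 and 14.4 in Ythdc1Δ/Δ samples, against 5.18, 10.5 and 11.3 in Ythdc1+/+ samples. Relative to the heavy chains, Jchain was lowest in Ythdc1+/+ WT178 and highest in Ythdc1Δ/Δ KO209, with the other samples close together.

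**Figure D3:**
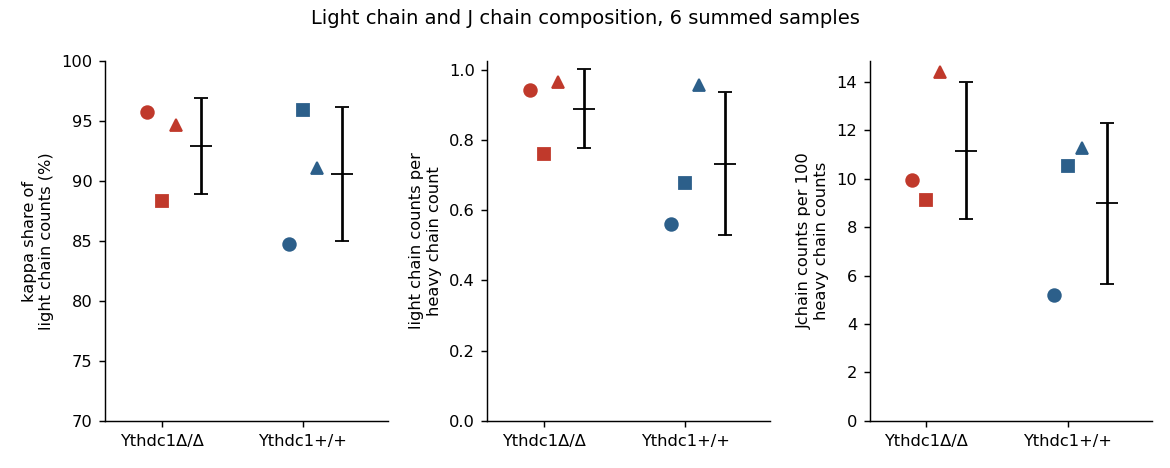
Kappa share of light chain counts (%, axis not starting at 0), light chain counts per heavy chain count and Jchain counts per 100 heavy chain counts in the 3 Ythdc1Δ/Δ samples (left) and 3 Ythdc1+/+ samples (right), with the mean and SD as bars. The ranges overlap in each panel; for kappa they are 88.3% to 95.8% in Ythdc1Δ/Δ and 84.7% to 95.9% in Ythdc1+/+ samples.

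The variable segments joined to these constant regions were looked at for what the choice of genes did not use, the order of segments within a sample. Of 113 heavy chain segments, Ighv11-2 had the most counts in 5 of 6 samples, with 21.1%, 13.8% and 22.4% of heavy segment counts in Ythdc1Δ/Δ KO176, KO177 and KO209, against 13.8%, 11.6% and 24.2% in Ythdc1+/+ WT178, WT180 and WT207. In Ythdc1+/+ WT180, Ighv1-26 led with 13.7%. Of 100 kappa segments, Igkv14-126 led in 6 of 6 samples, with 26.9%, 22.9% and 28.6% in the Ythdc1Δ/Δ samples, against 31.7%, 20.6% and 30.4% in the Ythdc1+/+ samples. Ighv11 with Igkv14-126 is known in mice as a recurrent pair in B-1 cells, an innate-like B cell population, where it binds phosphatidylcholine. Whether the 2 segments came from the same cells was not tested. Their last coding bases are printed to show which segments these are, with the codon of the conserved cysteine in capitals (GENCODE vM21, chr12:114048241-114048315, minus strand, and chr6:67896568-67896642, plus strand).
Ighv11-2: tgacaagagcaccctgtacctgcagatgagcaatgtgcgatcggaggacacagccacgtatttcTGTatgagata
Igkv14-126: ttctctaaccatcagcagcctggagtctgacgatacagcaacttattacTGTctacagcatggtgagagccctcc
Ighv11-1 had 98.9% identical bases with Ighv11-2 and could share its reads, and was at 0.0639, 0.193 and 1.24 CPM in Ythdc1Δ/Δ and 2.47, 0.187 and 0.0677 CPM in Ythdc1+/+ samples.

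Segment usage, with the leading segments included, differed more between numbers than between libraries of a number. The distance in heavy segment usage was 5.30 to 9.66 percentage points between libraries of a number, against 42.5 to 62.8 between numbers of the same genotype and 44.8 to 64.0 between genotypes. For kappa segments it was 2.77 to 4.88 within a number, against 44.4 to 64.3 between numbers of the same genotype and 42.5 to 64.7 between genotypes. Of the 113 heavy segments, 29 had at least 100 counts in a sample and 0 in another, as had 39 of the 100 kappa segments. Only 9 heavy and 3 kappa segments reached 10 counts in all 6 samples. These counts were not scaled for depth. Heavy segment totals ran from 3266 counts in Ythdc1+/+ WT178 to 31770 in Ythdc1Δ/Δ KO209, and kappa segment totals from 7728 to 82463 in the same samples.

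The size of the genotype difference was estimated for the 10 genes in the fit over all genes (edgeR quasi-likelihood, log2 scale, Ythdc1Δ/Δ minus Ythdc1+/+), and is given with its standard error (SE) and no p because these genes were chosen on it. The estimates were 1.49 ± 0.27 for Ighm, 2.46 ± 0.58 for Ighg2b and 3.88 ± 1.67 for Ighg2c. They were 2.25 ± 2.03 for Ighg1 and 0.77 ± 1.33 for Ighg3, where the SE is as large as or larger than most of the difference. Igha was at 1.78 ± 0.61, Igkc at 1.97 ± 0.44, Iglc1 at 1.59 ± 0.50, Iglc2 at 1.20 ± 0.71 and Jchain at 1.98 ± 0.62. All 10 estimates were above 0, with a median of 1.88, where the median of all tested genes was -0.01. Leaving out Ythdc1Δ/Δ KO177 brought Ighg3 to -0.01, so its direction rests on that sample. The estimate for Ighg1 was 9.07 without Ythdc1+/+ WT180, the only Ythdc1+/+ sample with more than 15 counts.

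**Figure D4:**
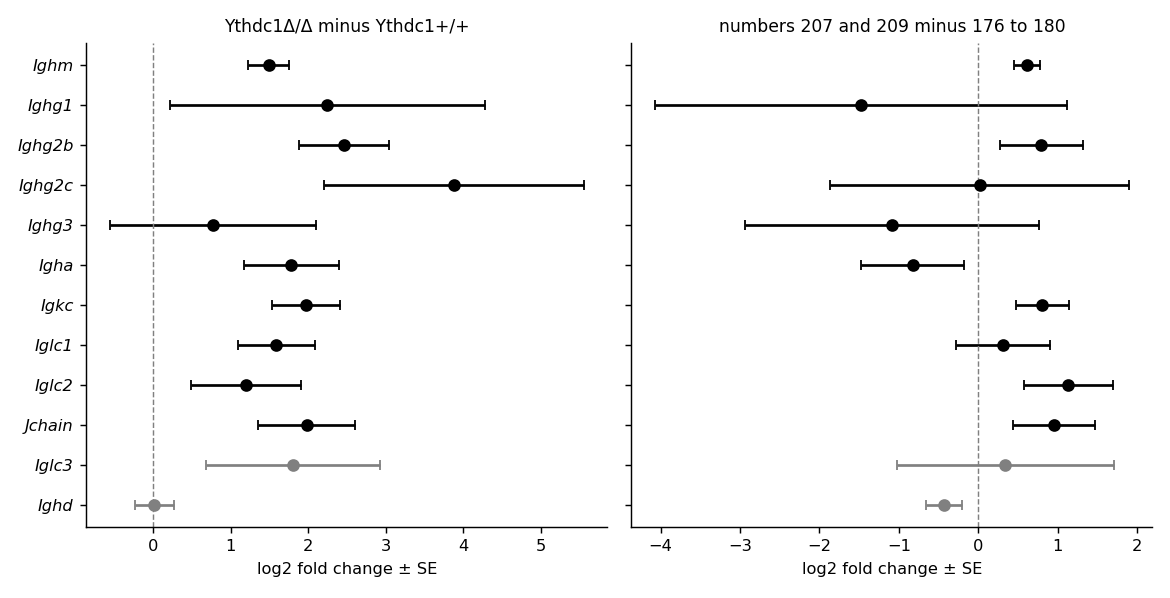
Log2 fold change ± SE of the 10 genes (black) and of Iglc3 and Ighd (gray), Ythdc1Δ/Δ minus Ythdc1+/+ (left) and numbers WT207 and KO209 minus KO176 to WT180 (right). On the left the 10 genes lie between 0.77 and 3.88 and Ighd at 0.01. On the right 7 of the 10 genes lie above 0, with a median of 0.46.

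The numbers of the titles fall into 2 ranges, KO176 to WT180 and WT207 with KO209, and each range holds both genotypes. Within KO176 to WT180, with 2 samples of each genotype, mean CPM in Ythdc1Δ/Δ over Ythdc1+/+ was 2.13 for Ighm, 3.36 for Igkc, 2.60 for Igha and 2.82 for Jchain. Between KO209 and WT207, with 1 sample of each genotype, the ratios were 3.81 for Ighm, 4.38 for Igkc, 7.96 for Igha and 5.33 for Jchain. All antibody genes other than Ighg3 were higher in Ythdc1Δ/Δ samples in both ranges. Ighg3 was at 3.03 within KO176 to WT180 and 0.0167 between KO209 and WT207. The contrast split here is the one that chose the genes, so nothing is read from a shared direction. What the ranges stand for is not given in the sources used here.

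The difference between the ranges was not used to choose the genes and was tested over all genes, with genotype in the model. In this edgeR fit 0 of the 10 genes passed an adjusted p of 0.05 (Benjamini-Hochberg over 18234 genes), as 0.378% of all tested genes did, and 1 of 10 had an unadjusted p under 0.05, as 19.0% of all tested genes did. That gene was Ighm, at 0.61 ± 0.16 (log2, SE) higher in WT207 and KO209 than in KO176 to WT180, with an adjusted p of 0.114 by edgeR. DESeq2 called 1 of the 10, and 4.47% of all genes. Of the 10 estimates 7 were above 0, with a median of 0.46, and the lowest was Ighg1 at -1.47 ± 2.60.

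Genes that belong to antibody-secreting cells were read from a list of 27 plasma cell genes, of which 27 were tested. Of these, 1 rose in Ythdc1Δ/Δ samples and 0 fell at an adjusted p of 0.05 by edgeR, where 0.137% of all tested genes were called in either direction. Unadjusted p was under 0.05 for 6 of the 27, all of them higher, and for 9.48% of all tested genes. The gene that rose was Pou2af1, which encodes the B cell co-activator OBF-1, at 2.71, 2.88 and 3.42 CPM in Ythdc1Δ/Δ samples, against 0.784, 0.977 and 1.22 CPM in Ythdc1+/+ samples (log2 1.63 ± 0.22, SE, edgeR adjusted p = 0.0332). This call was lost in 4 of the 6 fits that left out a sample, those without Ythdc1Δ/Δ KO177 and without Ythdc1+/+ WT178, WT180 or WT207. Slamf7, a receptor on plasma cells, was at 3.55 ± 1.16 CPM in Ythdc1Δ/Δ and 1.54 ± 0.208 CPM in Ythdc1+/+ samples (SD, n = 3 each, edgeR adjusted p = 0.151). Mzb1, a chaperone of antibody assembly, was at 1.29 ± 0.408 CPM in Ythdc1Δ/Δ and 0.526 ± 0.199 CPM in Ythdc1+/+ samples (edgeR adjusted p = 0.238). Eaf2 was at 1.09 ± 0.381 CPM in Ythdc1Δ/Δ and 0.529 ± 0.0705 CPM in Ythdc1+/+ samples (edgeR adjusted p = 0.286).

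The list median was a log2 difference of 0.38, with 23 of 27 estimates above 0, beside 1.88 for the antibody genes and -0.01 for all genes. The summed level of the list was 2194 to 2899 CPM in Ythdc1Δ/Δ and 2093 to 2381 CPM in Ythdc1+/+ samples, largely from secretory pathway genes that other cells express too. None of the 27 was at 0 in all samples. Xbp1, a regulator of secretion, was at 248 to 314 CPM in Ythdc1Δ/Δ and 242 to 325 CPM in Ythdc1+/+ samples. Prdm1, which encodes the plasma cell regulator BLIMP-1, was at 0.746, 0.322 and 1.15 CPM in Ythdc1Δ/Δ and 0.665, 0.624 and 0.496 CPM in Ythdc1+/+ samples. Irf4, another such regulator, was at 0.575, 0.279 and 0.784 CPM in Ythdc1Δ/Δ and 0.285, 0.312 and 0.339 CPM in Ythdc1+/+ samples. Both overlapped between genotypes, with log2 estimates of 0.35 for Prdm1 and 0.84 for Irf4. At levels this low, no lack of change is read from the overlap. The part of plasma cells in the antibody transcripts was not tested.

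Genes of mature B cells were tested for 20 of 20 and 0 passed in either direction, where edgeR gave an unadjusted p under 0.05 to 6 higher and 2 lower genes (9.48% over all genes). Cd79a, a signalling chain of the B cell receptor, was at 13.6, 16.3 and 13.3 CPM in Ythdc1Δ/Δ samples, against 6.77, 7.17 and 8.53 CPM in Ythdc1+/+ samples (edgeR adjusted p = 0.0622). The summed mature B cell list was at 401 to 563 CPM in Ythdc1Δ/Δ and 558 to 617 CPM in Ythdc1+/+ samples. Among 11 genes of pro-B and pre-B cells 0 passed, all 11 estimates were above 0, 6 had an unadjusted p under 0.05 (9.48% over all genes), and the list median was 0.66. Dntt, which adds bases at the joints of rearranging segments, was at 311 ± 40.6 CPM in Ythdc1Δ/Δ and 208 ± 32.3 CPM in Ythdc1+/+ samples (SD, n = 3 each, edgeR adjusted p = 0.194). The summed list was at 322 to 415 CPM in Ythdc1Δ/Δ and 205 to 264 CPM in Ythdc1+/+ samples, without overlap. Dntt made up most of this sum, at 270 to 352 CPM in Ythdc1Δ/Δ and 170.5 to 228 CPM in Ythdc1+/+ samples. Of the 11 genes, 4 had every Ythdc1Δ/Δ sample above every Ythdc1+/+ sample, beside 6.14% of all tested genes. The part of this list in the antibody transcripts was not tested.

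Of 10 genes of germinal centres and class switching, 9 were tested and 0 passed, and edgeR gave an unadjusted p under 0.05 to 2 higher genes and 1 lower gene (9.48% over all genes).

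Of the other lists, marrow stroma had 3 of 10 tested genes that rose in Ythdc1Δ/Δ samples by edgeR and 0 that fell. Over all tested genes 0.137% were called in either direction. Unadjusted edgeR p was under 0.05 for 6 of the 10 stroma genes, all higher, beside 9.48% over all genes. Adipoq, an adipokine also made by marrow reticular cells, was at 2.66 ± 0.820 CPM in Ythdc1Δ/Δ and 0.306 ± 0.204 CPM in Ythdc1+/+ samples (SD, n = 3 each, edgeR adjusted p = 0.0218). Lepr, the leptin receptor of those cells, was at 1.73 ± 0.170 CPM in Ythdc1Δ/Δ and 0.295 ± 0.154 CPM in Ythdc1+/+ samples (edgeR adjusted p = 0.0218). Sparc, a matrix protein, was at 5.96 ± 1.70 CPM in Ythdc1Δ/Δ and 1.79 ± 0.562 CPM in Ythdc1+/+ samples (edgeR adjusted p = 0.0456). Granulocyte genes had 13 of 13 estimates above 0 and marrow macrophage genes 8 of 10, and none of either list passed. Unadjusted p was under 0.05 for 2 of 13 granulocyte and 4 of 10 macrophage genes, beside 9.48% over all genes. HSC genes had 12 of 14 estimates below 0 and none passed, with 6 of 14 lower at an unadjusted p under 0.05, beside the same 9.48%. The marrow stroma list summed to 64.7 to 92.2 CPM in Ythdc1Δ/Δ and 59.1 to 76.5 CPM in Ythdc1+/+ samples. Pdgfrb, a receptor of mesenchymal cells, made up most of this sum, at 43.7 to 58.1 CPM in Ythdc1Δ/Δ and 53.7 to 70.5 CPM in Ythdc1+/+ samples. It was also the 1 gene of the list with an estimate below 0 (log2 -0.21), and it was set apart after its values were seen. The other 9 genes summed to 21.0 to 34.1 CPM in Ythdc1Δ/Δ and 5.42 to 11.2 CPM in Ythdc1+/+ samples, without overlap. Cxcl12 was the largest part of that sum, at 11.3 to 19.1 CPM in Ythdc1Δ/Δ and 2.23 to 6.09 CPM in Ythdc1+/+ samples. Of the 10 genes, 6 had every Ythdc1Δ/Δ sample above every Ythdc1+/+ sample, beside 6.14% of all tested genes. The part of these cells in the antibody transcripts was not tested. Plasmacytoid dendritic cell, T and NK cell and erythroid genes had 0 calls by edgeR, and at an unadjusted p under 0.05 there were 0 of 9, 1 of 11 and 2 of 10 genes in that order, beside the same 9.48%. Over all lists 4 genes were called, beside 0.137% of all tested genes, and 0 of the lists were called when KO177, WT178 or WT180 was left out. Without WT207 the only call over the lists was Cxcl12, a chemokine of reticular cells that was not among the 4.

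**Figure D5:**
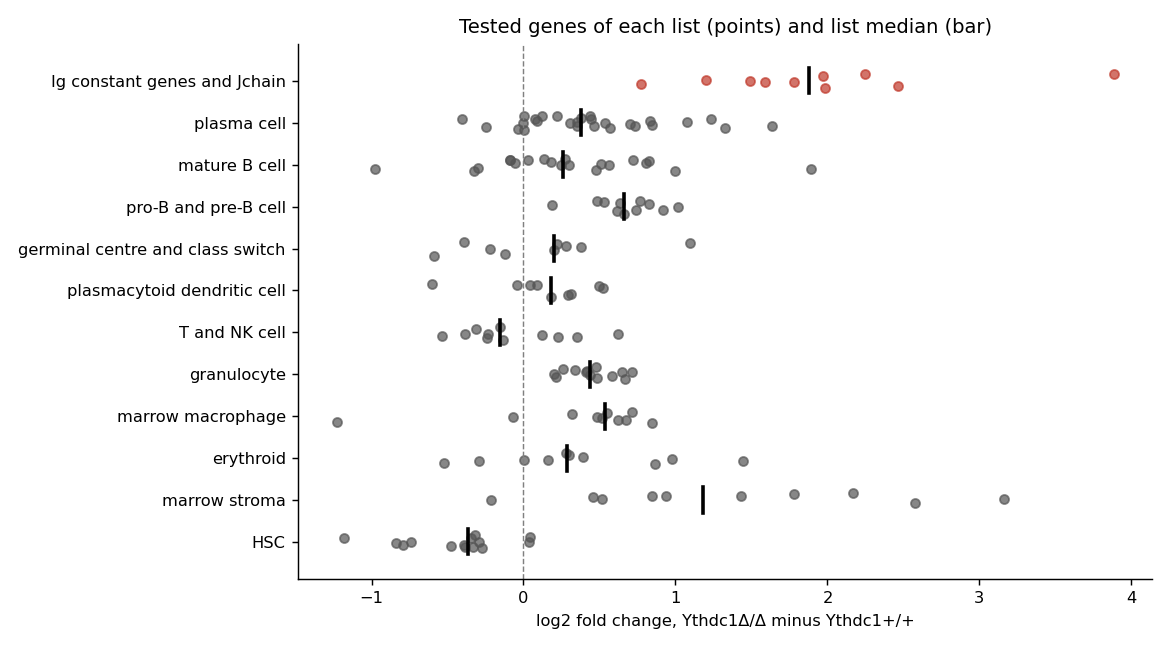
Log2 fold change, Ythdc1Δ/Δ minus Ythdc1+/+, of each tested gene (points) of the 10 antibody genes (red) and of 11 cell type lists (gray), with the median as a bar. The antibody genes have a median of 1.88, marrow stroma 1.18, pro-B and pre-B cells 0.66, plasma cells 0.38 and HSC genes -0.37.

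The antibody genes did not all follow the same pattern over the 12 libraries. After the genotype mean was subtracted on the log2 scale, Jchain (r = 0.95), Igkc (r = 0.91) and Ighm (r = 0.86) followed the other 9 genes, whereas Iglc1 (r = -0.01), Igha (r = -0.16) and Ighg3 (r = -0.82) did not. These values describe libraries that share a number and are not independent, so no p is attached. Among 13427 genes of at least 1 CPM outside the antibody loci, the closest in this pattern were Rbm47 (r = 0.98), Lrpprc, Susd6, Bub1, Chst1, Acpp, Tmem164 and Tent5c (r = 0.95). Only 2 of these 8 stayed among the 8 highest without subtracting the genotype mean, and 2 with the 6 summed samples. Tent5c, which encodes a poly(A) polymerase that lengthens the tails of antibody mRNAs, was the highest of the ranked genes of the plasma cell list, at rank 8. Ell2, an elongation factor used for secreted heavy chain mRNA, was at rank 96 and Derl3, of endoplasmic reticulum protein disposal, at rank 109, while Xbp1 was at rank 9181. Of the 22 ranked genes of the list, 13 had an r below 0. Prdm1, Irf4, Tnfrsf17, Mzb1 and Eaf2 of this list had a mean below 1 CPM and were not ranked. Without subtracting the genotype mean Tent5c was at rank 972, Ell2 at 6527 and Derl3 at 309.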

How the data were processed

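The authors deposited raw counts, in which featureCounts 2.0.1 assigned read pairs to GENCODE vM23 exons of mm10 with no strand setting and no multimapping reads, per the file headers. The paper's methods name Hisat2 for mapping, with Stringtie and FPKM values that are not used here, and do not mention featureCounts. A separate length column was used only for values per kilobase.

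Columns were matched to the labels by title. Counts of the 2 libraries of a number were summed. Genes with a minimum count of 10 and a total of 15 (filterByExpr) were tested with edgeR 4.0.16 in R 4.3.3 (TMM, robust quasi-likelihood, Benjamini-Hochberg), with the number range as a further contrast. DESeq2 1.42.0 was an alternative. The SE is derived from the F statistic. P-values weigh a group difference against the spread between the summed samples, which the labels do not say are single animals. Likeness used log2(CPM + 0.5). Sequences and coding alignments came from GENCODE vM21 (GRCm38), figures from matplotlib 3.10.9. The steps were tested on simulated data.

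The genes, lists and tests were chosen with earlier results of these data known. Named were the 10 genes, called members of each list and up to 4 members with the smallest p, of which the text gives some, and the 8 likeness genes. Prdm1, Irf4 and Pdgfrb were named for their level and the V segments for their rank after their values were seen. Results of lists not named above are in the plot of the lists. Alternatives changed the unit of replication, scaling, filter, tool, model and each sample left out.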

Additional observations from a re-analysis of the deposited data

How the results depend on the processing

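The 10 antibody genes were chosen on the genotype contrast and the runs reuse the same samples, so nothing is read from a kept direction. Their median log2 difference kept its direction in every alternative run, at 1.52 to 2.09 when a sample was left out. Of 160 single-gene values under alternatives 159 were above 0. The exception was Ighg3 at -0.00894 without Ythdc1Δ/Δ KO177, which reached 1.36 without another sample. Depth limits the ratios of Ighg1 in WT178 and WT207 (0 and 15 counts), Ighg2c in WT180 (5) and Ighg3 in KO209 (13). Leaving out a sample gave -12.5 to -4.70 percentage points for the share of Ighm (Ythdc1Δ/Δ minus Ythdc1+/+), 2.03 to 10.2 for the gamma genes, -0.54 to 4.80 for Igha, -0.56 to 5.02 for kappa, and 0.264 to 3.31 for Jchain per 100 heavy chain counts. Scaling by exon length, adding Ighd, Ighe, Iglc3 and Iglc4, or averaging libraries moved these by less than the spread between samples.

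Counts of called genes depended on the setting, and the cause was not tested other than where more samples or genes entered by construction. For genotype, 25 genes were called. With the 12 libraries as separate samples there were 751, with a replicate block for the digit after the number 717, with upper quartile scaling 16, with TMM without immunoglobulin genes 13, with no filter 73, with a minimum count of 50 3, with DESeq2 221, with the legacy option 15 and with a term for the number range 85. Leaving out a sample gave 1 to 81. For the number ranges, 69 genes were called. The same settings gave 2855 (separate libraries), 3039 (replicate block), 119 (upper quartile), 219 (no filter) and 815 (DESeq2), and 2 to 173 without a sample. Of the 10 antibody genes 0 were called for the ranges, against 3 with separate libraries, 2 with the replicate block, 1 with DESeq2 and 0 to 1 without a sample. Over all lists 4 genes were called for genotype, against 27 with separate libraries, 27 with the replicate block, 11 with no filter, 0 with a minimum count of 50, 17 with DESeq2, 10 with the range term and 0 to 9 without a sample. Of the plasma cell list 1 was called, against 5, 5, 2, 0, 3 and 2 in those settings and 0 to 1 without a sample. The labels do not say whether the 2 libraries of a number are technical repeats or separate cell pools. The digits were taken as names only, and treating libraries as separate samples counts each number again. Of the 8 likeness genes 2 stayed without subtracting the genotype mean and 2 with the 6 summed samples.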
